A study of Rattus norvegicus with 12 samples.

Results

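The genes described here are 8 pore-forming subunits of voltage-gated potassium channels of the Kv1 to Kv4 families: Kcna1, Kcna2, Kcna4, Kcnb2, Kcnc1, Kcnc2, Kcnd2 and Kcnd3. They are 8 of 26214 gene names on the array and were chosen by name, and every non-control probe that the array files assign to one of these names was taken, which gave 14 probes of 30367 non-control probes in all. Of the 14, 13 were bright enough to be tested among 21533 probes. Expression was measured on Agilent microarrays in prefrontal cortex from Sprague-Dawley rats, all female, on which a probe is a printed oligonucleotide and its brightness follows the amount of labelled RNA bound to it.

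There were 3 groups of 4 samples, and all 12 came from tissue taken on postnatal day 15. Control rats had mothers injected with saline on gestational day 15 and were themselves given saline on postnatal day 14. Betamethasone rats had mothers given 2 injections of 0.4 mg/kg betamethasone, a synthetic glucocorticoid, on gestational day 15, and received saline on postnatal day 14. Betamethasone with ketamine rats had the same prenatal injections and received 35 mg/kg ketamine, a blocker of NMDA-type glutamate receptors, on postnatal day 14. Litters were reduced to 4 females. The labels say that rats showing infantile spasms were given ketamine or saline but do not say which samples came from such rats, and their developmental stage field disagrees with the age given elsewhere in the labels. Whether samples of a group came from separate litters is not given, so the p-values measure the spread between these samples.

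Voltage-gated potassium channels open when a neuron depolarizes and let potassium out, which repolarizes the membrane. Kv1 subunits sit largely on axons and set the threshold for firing, and Kv2 subunits give a slow current of the soma and proximal dendrites. Kv3 subunits allow fast spiking, above all in parvalbumin interneurons, and Kv4 subunits carry the rapidly inactivating A-type current of dendrites.

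Of the 14 probes, 3 are printed here. The Kcna2 probe has its only spot in an area of one array that departs from the others, the betamethasone samples of the Kcnb2 probe stood apart from both other groups, and the Kcnd2 probe differed in sign from the gene's other probe. They read 5′ to 3′ and, in the rat build rn4, lie at chr2:202563948-202564007 on the plus strand, chr5:2684159-2684218 on the minus strand and chr4:48046217-48046276 on the plus strand.
Kcna2, A_44_P217295: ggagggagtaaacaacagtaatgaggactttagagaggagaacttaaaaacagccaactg
Kcnb2, A_64_P162633: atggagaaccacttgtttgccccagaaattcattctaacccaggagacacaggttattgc
Kcnd2, A_64_P154548: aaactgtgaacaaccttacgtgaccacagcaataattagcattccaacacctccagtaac

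Each array carried 2 samples of the same group, one labelled with Cy3 and one with Cy5, so that a group rested on 2 arrays. Per sample, between 71.4% and 81.5% of spots were well above background. The 2 control arrays were on one slide and the other 4 arrays on another, so in either comparison with control the slide and the treatment cannot be told apart. Values below are normalized log2 intensities, where a difference of 1 is a doubling. The level of one probe is not set against that of another. In bulk tissue, fewer cells of a type and less RNA per cell cannot be told apart. The excitatory cortical neuron markers were measured, with 7 of 8 tested, and their summed linear intensity ranged from 26627 to 34262 in controls, from 27287 to 29964 after betamethasone and from 27232 to 33164 after betamethasone with ketamine. Such a sum is weighted towards the brightest probes of its list.

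None of the 13 tested Kv1 to Kv4 probes changed in any of the 3 comparisons in limma's test at an adjusted p of 0.05, with p-values adjusted over all probes tested. Over all probes, 46 of 21533 (0.214%) were called between betamethasone and control, 0 (0%) between betamethasone with ketamine and betamethasone, where limma gave 680 at an unadjusted p under 0.05, and 17 (0.0789%) between betamethasone with ketamine and control. The smallest adjusted p of a member was 0.312, 0.909 and 0.239 in that order, from limma. At an unadjusted p under 0.05 limma gave 3 member probes between betamethasone and control, all lower, where 11.4% of all probes met that criterion and 4.8% met it and were lower. It gave 1 member probe, higher, for the ketamine comparison, against 3.16% of all probes and 1.83% in that direction, and 1 member probe, lower, between betamethasone with ketamine and control, against 13.9% and 4.25%. The median log2 change over the 13 probes was -0.06, 0.04 and -0.01, beside 0.03, 0.05 and 0.07 over all probes tested. With 75th percentile scaling the member medians were -0.32, 0.24 and 0.06, with 12 of 13 higher in the ketamine comparison, beside -0.22, 0.35 and 0.17 over all probes. With loess and equal array medians the member median of the ketamine comparison was -0.18, beside -0.07 over all probes. With the deposited value table in place of the scanner signals, each column centred on its own median, 7 of 10 member probes with values passed in each comparison with control, together with 8152 and 6446 of 15940 probes. Centred instead on the probes with a value in every column, a setting chosen after that result was seen, 0 of the 10 passed.

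**Figure D1:**
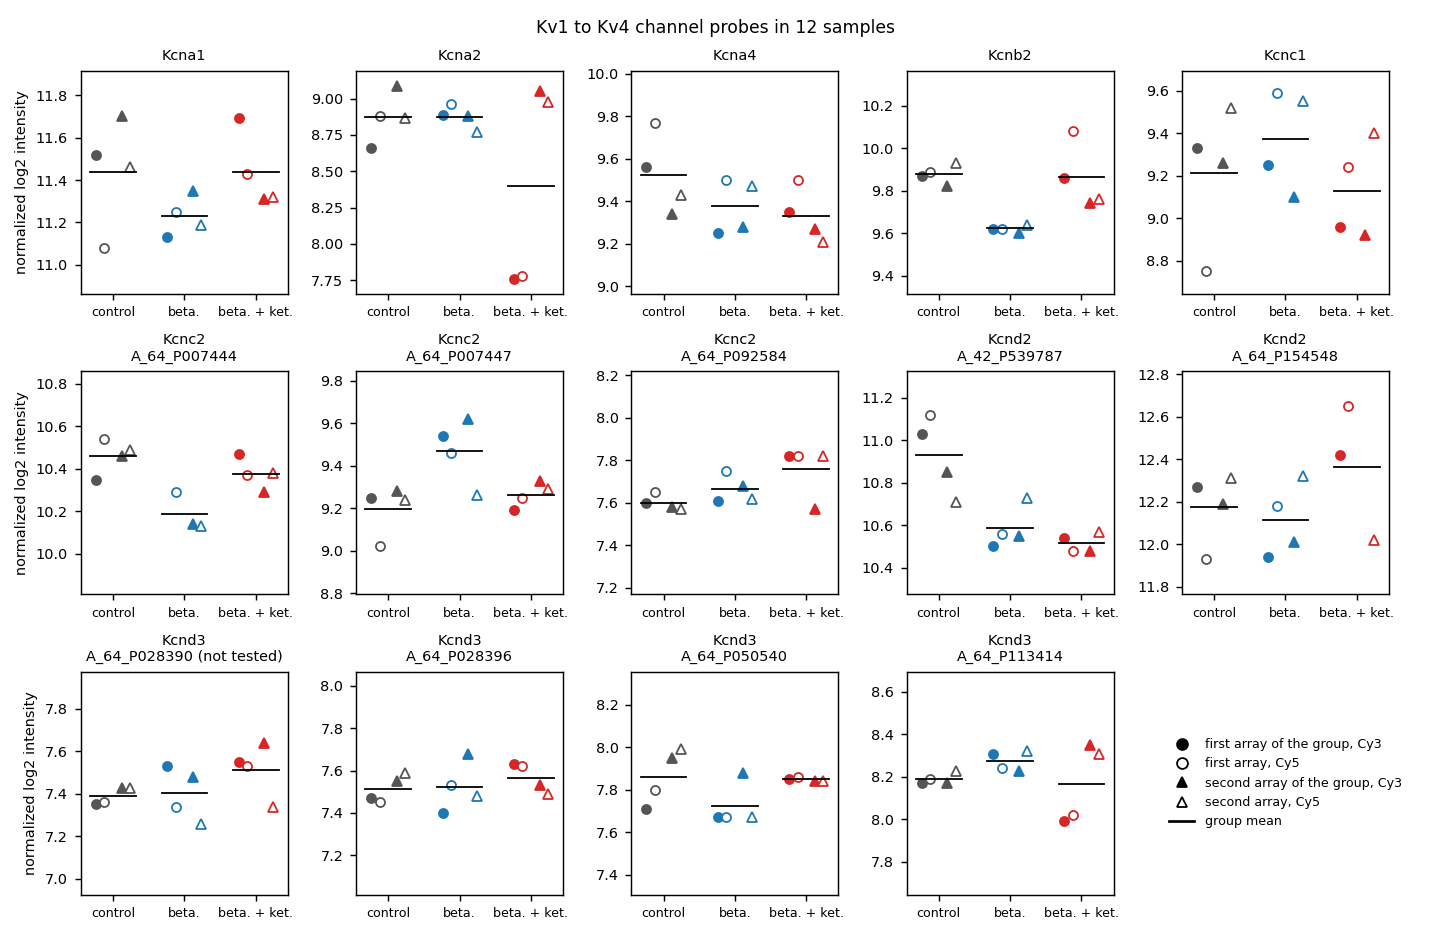
Normalized log2 intensity (y axis) of the 14 Kv1 to Kv4 probes in the control, betamethasone (beta.) and betamethasone with ketamine (beta. + ket.) groups, 1 point per sample, with circles and triangles for the first and second array of a group, filled points for Cy3, open points for Cy5 and a bar at the group mean. Kcna2 lies at 7.76 and 7.78 in the ketamine samples of one array and at 9.05 and 8.98 in those of the other.

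**Figure D2:**
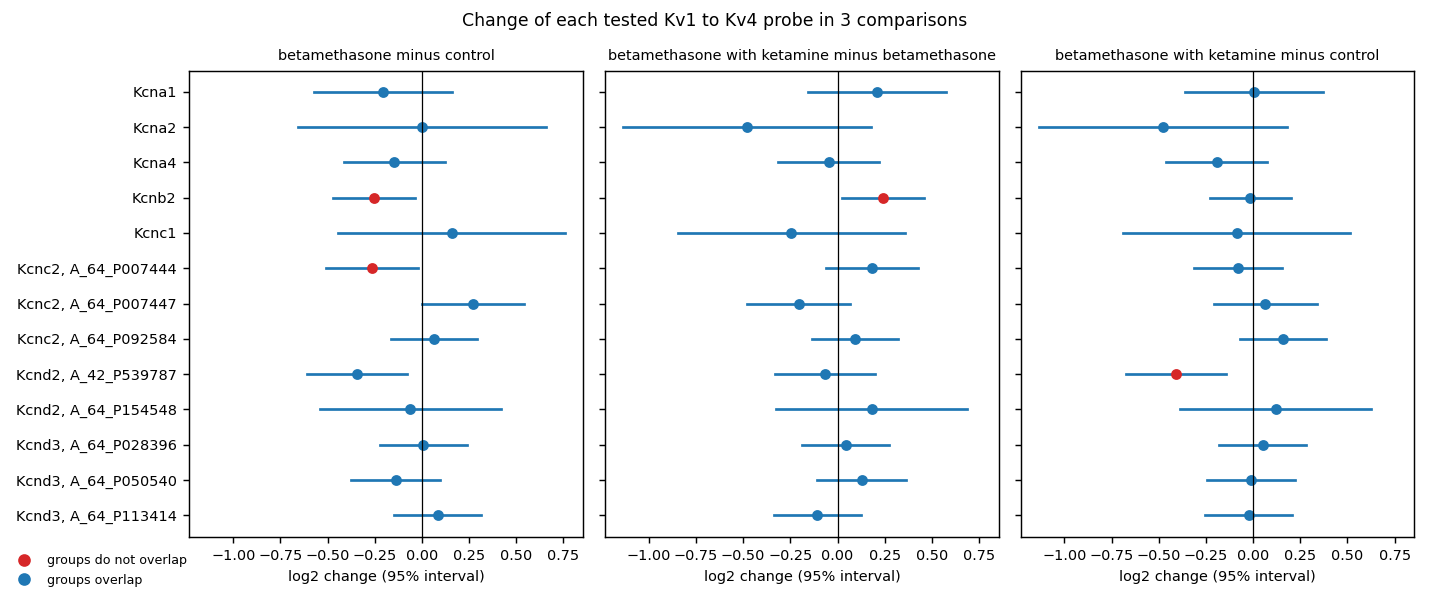
Log2 change (x axis) of the 13 tested probes with its 95% confidence interval from limma in the 3 comparisons, in red where the samples of the groups do not overlap. The intervals of Kcna2 run from -1.14 to 0.18 in the ketamine comparison.

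Among the Kv1 genes, Kcna1 encodes Kv1.1, an axonal subunit. Its control samples measured 11.52, 11.08, 11.70 and 11.46, the betamethasone samples 11.13, 11.25, 11.35 and 11.19, and the betamethasone with ketamine samples 11.69, 11.43, 11.31 and 11.32. Control replicate 2 was the lowest of all 12, and the groups overlapped in every comparison. The log2 change was -0.21 (95% interval -0.57 to 0.16) between betamethasone and control, 0.21 (-0.16 to 0.58) between betamethasone with ketamine and betamethasone, and 0.00 (-0.36 to 0.37) between betamethasone with ketamine and control. The signs depended on the scaling, since the first change was 0.10 and the second -0.26 with loess and equal array medians.

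Kcna2 encodes Kv1.2, which pairs with Kv1.1 beside the nodes of Ranvier. Control samples measured 8.66, 8.88, 9.09 and 8.87, and betamethasone samples 8.89, 8.96, 8.88 and 8.77. The betamethasone with ketamine samples measured 7.76, 7.78, 9.05 and 8.98. The low pair shared one array, and the other pair lay within the control range. The change was -0.48 (95% interval -1.14 to 0.18; limma, adjusted p = 0.909) against betamethasone and -0.48 (-1.14 to 0.18; adjusted p = 0.478) against control. Between betamethasone and control it was 0.00 (-0.66 to 0.66).

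The only Kcna2 spot of the low array lay in an area where many neighbouring spots departed from the other arrays. The spot itself was 1.15 log2 units below what the other arrays gave (departure -1.15), and 40.3% of the spots around it lay over 1 log2 unit off, against 0% around the same spot on the other ketamine array. Spots in such areas made up 5.22% of the low array and 0.0653% of the other ketamine array. Without the low array the Kcna2 change was 0.14 against betamethasone (limma, adjusted p = 1) and 0.14 against control (adjusted p = 0.727). Without the other ketamine array it was -1.10 in both comparisons, with adjusted p = 0.00111 against betamethasone and 0.00104 against control in limma. These fits leave the ketamine group with a single array, which is assumed to vary like the others. The fit without the other ketamine array called 2569 of 21523 probes against betamethasone and 3491 against control. With 75th percentile scaling the direction turned, to 0.33 and 0.07.

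**Figure D3:**
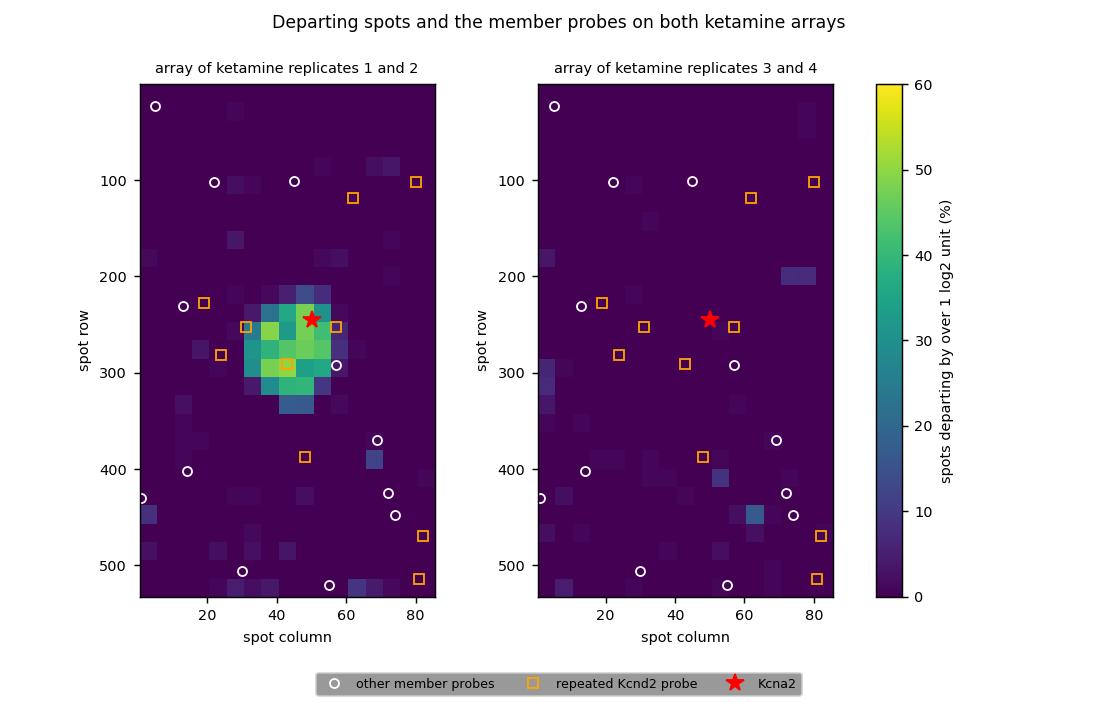
Share of spots (colour, in percent) that lie over 1 log2 unit away from the remaining arrays, in blocks of the printed grid (x axis, spot column; y axis, spot row), on the array of ketamine replicates 1 and 2 and on that of replicates 3 and 4. The Kcna2 spot (star) lies inside the departing area of the first array, as do some of the repeated Kcnd2 spots (squares).

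Kcna4 encodes Kv1.4, the rapidly inactivating member of the Kv1 family. Control samples measured 9.56, 9.77, 9.34 and 9.43, betamethasone samples 9.25, 9.50, 9.28 and 9.47, and betamethasone with ketamine samples 9.35, 9.50, 9.27 and 9.21. The groups overlapped throughout. The change was -0.15 (95% interval -0.41 to 0.12), -0.05 (-0.31 to 0.22) and -0.19 (-0.46 to 0.07) in the order of the comparisons above.

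Kcnb2 encodes Kv2.2, a delayed rectifier of cortical neurons. Control samples measured 9.87, 9.89, 9.82 and 9.93, and betamethasone samples 9.62, 9.62, 9.60 and 9.64. The betamethasone with ketamine samples measured 9.86, 10.08, 9.74 and 9.76. Every betamethasone sample lay below every sample of both other groups. Groups that did not overlap and were lower made up 7.16% of all probes between betamethasone and control, where 2 member probes met that criterion. These were Kcnb2 and a Kcnc2 probe with only 3 betamethasone values. In the ketamine comparison non-overlapping and higher groups made up 2.68% of all probes, and Kcnb2 was the 1 member among them. The change was -0.25 (95% interval -0.47 to -0.04; unadjusted p = 0.0257, adjusted p = 0.363 in limma) between betamethasone and control. It was 0.24 (0.02 to 0.46; unadjusted p = 0.0332, adjusted p = 0.909 in limma) between betamethasone with ketamine and betamethasone, and -0.01 (-0.23 to 0.20) between betamethasone with ketamine and control. The first of these was -0.08 with the processed signals and -0.09 with loess and equal array medians. The second was -0.04 with that loess setting, and without the array of ketamine replicates 3 and 4 it was 0.35 (limma, adjusted p = 0.0271). That fit leaves the ketamine group with a single array and called 2569 of 21523 probes in this comparison.

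Kcnc1 encodes Kv3.1, a subunit of fast-spiking interneurons. Control samples measured 9.33, 8.75, 9.26 and 9.52, betamethasone samples 9.25, 9.59, 9.10 and 9.55, and betamethasone with ketamine samples 8.96, 9.24, 8.92 and 9.40. Control replicate 2 was the lowest of all, and the groups overlapped. The change was 0.16 (95% interval -0.44 to 0.76), -0.25 (-0.85 to 0.36) and -0.09 (-0.69 to 0.51), so that differences of this size could not be resolved with these samples. The interneuron markers, 9 of 9 tested, had a summed linear intensity of 57663 to 67784 in controls, 64834 to 70077 after betamethasone and 55602 to 81334 after betamethasone with ketamine. The brightest probe, of Sst, weighs most in that sum, which says little about parvalbumin cells. Between betamethasone with ketamine and control the 9 markers ranged from -0.91 to 0.60, with 5 higher and 4 lower. Of these, 1 was lower at an unadjusted p under 0.05 in limma, where 4.25% of all probes were. Their part in the Kv3 values was not tested.

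Kcnc2 encodes Kv3.2, and its 3 probes lie at different places of the gene. The probe for transcript variant a, A_64_P007444 at chr7:51487876-51487935 on the plus strand of rn4, measured 10.35, 10.54, 10.46 and 10.49 in controls. It measured 10.29, 10.14 and 10.13 in betamethasone replicates 2 to 4, replicate 1 being left out as an outlier spot, and 10.47, 10.37, 10.29 and 10.38 after betamethasone with ketamine. The 3 betamethasone values lay below all controls, as did those of 7.16% of all probes. That share is over probes with 3 or 4 values per group, and 3 values separate from 4 controls more easily than 4 do. The change was -0.26 (95% interval -0.51 to -0.02; unadjusted p = 0.0374, adjusted p = 0.406 in limma) between betamethasone and control, 0.18 (-0.06 to 0.43) for ketamine against betamethasone and -0.08 (-0.32 to 0.15) for both against control. With the processed signals the first turned to 0.08.

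The probe for variant b, A_64_P007447 at chr7:51485347-51485406, measured 9.25, 9.02, 9.28 and 9.24 in controls, 9.54, 9.46, 9.62 and 9.26 after betamethasone, and 9.19, 9.25, 9.33 and 9.29 after betamethasone with ketamine. Of the betamethasone samples, 1 lay within the control range and the others above it. The change was 0.27 (95% interval 0.00 to 0.54; unadjusted p = 0.0509, adjusted p = 0.436 in limma), -0.21 (-0.48 to 0.07) and 0.07 (-0.21 to 0.34). The dimmer probe A_64_P092584, at chr7:51483758-51483817, ranged from 7.57 to 7.65 in controls, from 7.61 to 7.75 after betamethasone and from 7.57 to 7.82 after betamethasone with ketamine, and was well above background in 11 of 12 samples.

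The variant b and variant a probes of Kcnc2 were also compared within each sample, a comparison chosen after their values were seen. The difference, variant b minus variant a, was -1.10, -1.52, -1.18 and -1.25 in controls. It was -0.83, -0.53 and -0.87 in the 3 betamethasone samples with both values, and -1.28, -1.12, -0.96 and -1.09 after betamethasone with ketamine. The betamethasone samples lay above all samples of the other groups. Each pair of samples on one array shares that array, so the samples are not independent. A permutation over samples was run but treats them as independent, so its p-values are not used and the difference is given as a description. The mean difference was -0.744 ± 0.188 (SD, n = 3) after betamethasone and -1.26 ± 0.185 (SD, n = 4) in controls. The mean difference of betamethasone minus that of controls was 0.519, and that of betamethasone with ketamine minus that of betamethasone was -0.371. A difference between probes on one array shows unequal change and not which of them changed.

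Kcnd2 encodes Kv4.2, the main A-type subunit of pyramidal cell dendrites. Its probe A_42_P539787, at chr4:48047668-48047727 on the plus strand, is printed 10 times on each array, and the spots of a sample had an SD of 0.187 to 0.436. Their means were 11.03, 11.12, 10.85 and 10.71 in controls, 10.50, 10.56, 10.55 and 10.73 after betamethasone, and 10.54, 10.48, 10.48 and 10.57 after betamethasone with ketamine. On the array of ketamine replicates 1 and 2, some spots of this probe lay in the departing area. The spot at row 253 had a departure of -0.69, with 16.5% of the spots around it over 1 log2 unit off. Replicates 3 and 4, at 10.48 and 10.57, were on the other ketamine array. All samples given betamethasone with ketamine lay below all controls, as did 3.66% of all probes, and betamethasone replicate 4 lay just above the lowest control. The change was -0.34 (95% interval -0.61 to -0.08; unadjusted p = 0.016, adjusted p = 0.312 in limma) between betamethasone and control. It was -0.41 (-0.67 to -0.14; unadjusted p = 0.00598, adjusted p = 0.239 in limma) between betamethasone with ketamine and control, and -0.07 (-0.33 to 0.20) between the treated groups. Both comparisons use the same controls and the same slide difference. The first change was -0.10 with loess and equal array medians, -0.20 without the array of control replicates 1 and 2 and -0.49 without that of control replicates 3 and 4. Without control replicates 3 and 4 the second change was -0.56 (limma, adjusted p = 0.0339), and without control replicates 1 and 2 it was -0.26 (adjusted p = 0.471). These fits leave the controls with a single array. In that comparison they called 406 of 21347 and 234 of 21392 probes.

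The other Kcnd2 probe, A_64_P154548, gave 12.27, 11.93, 12.19 and 12.31 in controls, 11.94, 12.18, 12.01 and 12.32 after betamethasone, and 12.42, 12.65 and 12.02 after betamethasone with ketamine, with replicate 3 left out as an outlier spot. These groups overlapped. The change was -0.06 (95% interval -0.54 to 0.42), 0.18 (-0.33 to 0.69) and 0.12 (-0.39 to 0.63), so the probes of the gene differed in sign between betamethasone with ketamine and control. The within-sample difference between them moved by -0.587 in that comparison, also given as a description, with the permutation p-value not used.

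**Figure D4:**
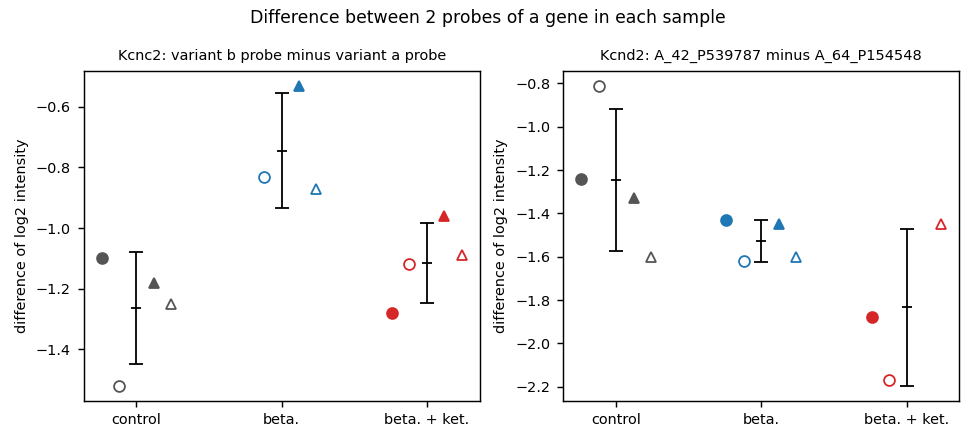
Difference of log2 intensity (y axis) between a pair of probes of one gene in each sample, by group, with circles and triangles for the first and second array of a group, filled for Cy3 and open for Cy5, and bars for the mean and SD. For Kcnc2 the betamethasone samples lie between -0.87 and -0.53, above all other samples.

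Kcnd3 encodes Kv4.3, which forms A-type channels in interneurons and some pyramidal cells. Its 4 probes lie between 200921626 and 200922231 on the plus strand of chromosome 2 in rn4. Probe A_64_P028390 was well above background in only 2 of 12 samples, both given ketamine, and was not tested. Probe A_64_P113414 ranged from 8.17 to 8.23 in controls and from 8.23 to 8.32 after betamethasone, and measured 7.99, 8.02, 8.35 and 8.31 after betamethasone with ketamine, with the low pair on the array that also held the low Kcna2 values. Its change was 0.08 (95% interval -0.15 to 0.31), -0.11 (-0.34 to 0.12) and -0.02 (-0.25 to 0.21). Probe A_64_P050540, which like the other Kcnd3 probes is matched to several transcripts, gave -0.14 (-0.38 to 0.10), 0.13 (-0.11 to 0.36) and -0.01 (-0.25 to 0.22). Probe A_64_P028396 was well above background in 8 of 12 samples: 2 control, 2 betamethasone and 4 given betamethasone with ketamine. It was thus bright enough to be tested only because of the ketamine group. Its changes were 0.01, 0.04 and 0.05. The 3 tested probes did not share a sign in any comparison. In the last comparison only this dim probe differed, as A_64_P113414 and A_64_P050540 were both lower there. The groups of all 3 overlapped throughout. The sign of A_64_P113414 turned under several scalings, for example to -0.41 between betamethasone and control with 75th percentile scaling.

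The partners of these channels were described by 4 lists, none of which had a gene past the threshold in limma's test in any comparison. Between betamethasone and control 43.7% of all probes were lower. The median over all probes was 0.03 there, -0.22 with 75th percentile scaling and 0.11 on the processed signals. Of 9 other Kv1 to Kv4 pore subunits, 8 were tested, with 2 higher and 6 lower and a median log2 change of -0.16 between betamethasone and control, which was 4 higher and 4 lower with a median of 0.04 on the processed signals. The largest of these values was Kcna6, which encodes Kv1.6, at 0.55 (95% interval -0.00 to 1.11; limma, adjusted p = 0.436), from controls at 11.40, 10.69, 11.49 and 11.54 and betamethasone samples at 11.62, 11.87, 12.03 and 11.80. The betamethasone samples lay above all controls for this probe, as did 10.4% of all probes, whereas the dimmer Kcna6 probe A_64_P384267 had means of 8.98 in controls and 8.67 after betamethasone.

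Silent subunits form no channel alone and modify Kv2 channels. Of 10, 9 were tested, and between betamethasone and control 6 were lower and 3 higher, with a median of -0.19 beside 0.03 over all probes, which turned to 0.14 on the processed signals. Kcnv2 measured 8.57, 9.25, 8.63 and 8.83 in controls and 8.31, 8.36, 8.16 and 8.37 after betamethasone, without overlap, a change of -0.52 (95% interval -0.91 to -0.13; limma, adjusted p = 0.299). Of all probes, 7.16% did not overlap and were lower in this comparison, in which slide and treatment cannot be told apart. All 9 were higher after betamethasone with ketamine than after betamethasone, with a median of 0.18 and a range of 0.07 to 0.28, where 36.8% of all probes were lower. That count was 5 of 9 with loess and equal array medians and 7 of 9 on the processed signals. The smallest adjusted p among them was 0.909 in limma.

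Auxiliary subunits include the KChIP proteins, calcium sensors that bind Kv4 channels. All 14 genes of that list were tested, with 7 higher and 7 lower and a median of 0.02 between betamethasone and control, which moved to -0.41 with 75th percentile scaling and 0.38 on the processed signals. Kcnip1, which encodes KChIP1, measured 9.74, 9.47, 9.49 and 9.48 in controls, 10.06, 10.02, 10.05 and 9.91 after betamethasone, and 9.80, 9.85, 9.99 and 9.98 after betamethasone with ketamine. Both treated groups lay above all controls. Of all probes, 10.4% did so after betamethasone and 11.9% after betamethasone with ketamine, in comparisons that use the same controls and the same slide difference. The change was 0.46 (95% interval 0.22 to 0.71; limma, adjusted p = 0.142) after betamethasone and 0.36 (0.12 to 0.60; adjusted p = 0.247) after betamethasone with ketamine. These were -0.08 and -0.21 with the value table centred on column medians, where the medians over all probes were -0.58 and -0.51. The values are those of the brighter Kcnip1 probe, and the dimmer one, A_44_P499954, was also tested but is not described. Kcnip4 was at 0.44 (0.02 to 0.86; limma, adjusted p = 0.909) in the ketamine comparison. It was 0.70 without the array of ketamine replicates 3 and 4 (limma, adjusted p = 0.0257), 0.18 without that of replicates 1 and 2, and 0.11 with loess and equal array medians. The fit without replicates 3 and 4 leaves the ketamine group with a single array and called 2569 of 21523 probes.

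Of 10 partners of the axonal Kv1 complex, 9 were tested, with 7 lower and 2 higher and a median of -0.06 between betamethasone and control, which was -0.38 with 75th percentile scaling and -0.28 with the value table centred on common probes. Adam23, a receptor of the secreted protein Lgi1, was at -1.13 (95% interval -2.39 to 0.13; limma, adjusted p = 0.48), from controls at 7.98, 7.77, 9.75 and 10.66 and betamethasone samples from 7.87 to 7.96. The high control pair shared one array. Of the oligodendrocyte and myelin markers, the cells whose sheath organizes axonal Kv1 channels, 13 of 14 were lower in that comparison, where 43.7% of all probes were. Their median was -0.43 with none past the threshold, and it stayed below 0 under every scaling tried. The count was 10 of 14 lower with loess and equal array medians. Some scalings lowered all probes, whose median was -0.22 with 75th percentile scaling and -0.58 with the value table centred on column medians. The summed linear intensity of these markers ranged from 55343 to 103947 in controls, from 36391 to 68597 after betamethasone and from 44828 to 85924 after betamethasone with ketamine. Their part in the Kv1 values was not tested.

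**Figure D5:**
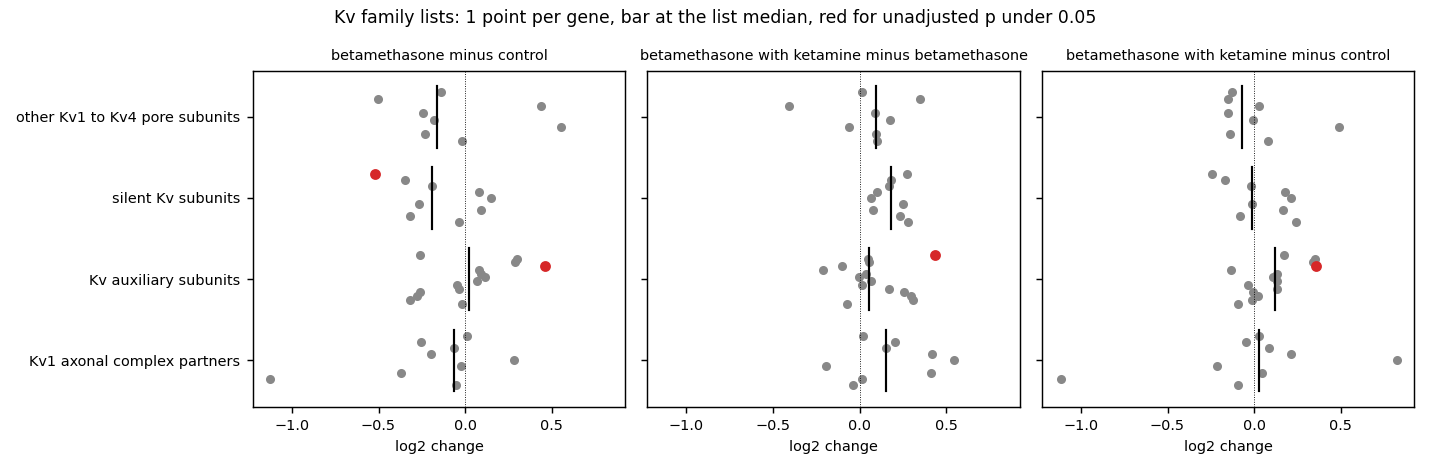
Log2 change (x axis) of each tested gene of the 4 Kv family lists, by its brightest probe, in the 3 comparisons, with a bar at the list median and red points at an unadjusted p under 0.05. In the ketamine comparison all 9 silent subunits lie above 0, between 0.07 and 0.28, a count that was 5 of 9 with loess and equal array medians.

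The profile most like that of each member's brightest tested probe was found by the smallest root mean square difference of centred log2 values over the samples with a value, as a description. It was Gnao1 for Kcna1 (0.0772 over 12 samples), Dph3 for Kcna2 (0.0991), Stard4 for Kcna4 (0.0623) and Kdm4dl for Kcnb2 (0.0565). For the others it was Maea for Kcnc1 (0.15), Srgap1 for Kcnc2 (0.0562 over 11 samples), Zfp598 for Kcnd2 (0.0643 over 11 samples) and Gpr133 for Kcnd3 (0.0308). The Kcnc1 profile had the least close neighbour. The Kcna2 and Kcnd3 profiles each held a low pair on the ketamine array with the departing area. Whether their matches follow that array was not tested.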

How the data were processed

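Total RNA of 12 samples was labelled with Cy3 or Cy5 and hybridized to 6 arrays of 42877 non-control spots. Agilent Feature Extraction made the scanner files, version 11.5.1.1 for the control arrays and 11.0.1.1 for the others per the file headers, while the submitters' processing notes name 10.7.3.1. The deposited spot and background intensity values are not normalized, per the file headers, and the processed intensity is background-subtracted and dye-normalized. The deposited value table holds, as its values show, the ratio of background-subtracted median signal to the column median. Its columns for control replicates 1 and 2 match the scanner values of control replicates 3 and 4, and the reverse, which leaves the group unchanged.

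Intensities were corrected by normexp with an offset of 50, loess-normalized within each array, then Aquantile-normalized across arrays, and averaged per probe on the log2 scale, outlier spots set missing. Each channel was its own sample. limma 3.58.1 in R 4.3.3 was fitted to all 12 samples with group and dye as terms and the array as a random block (correlation 0.555). A probe was tested if some group had 3 or more samples in which it was well above background, and every group 3 or more values, with Benjamini-Hochberg adjustment over 21533 probes and a threshold of 0.05. The fit was run on simulated data with normal noise and the same array correlation. These held no slide difference, departing area or scaling shift, so they say nothing about those. Named genes are the 8 members, the 3 genes of each list with the smallest p in each comparison, of which the text gives some, and the nearest profile of each member; Kcna6's dimmer probe was named after its values were seen. The values of 1 list gene are not reported here. Members and lists were chosen with earlier results of these data known. Arrays, not depth, limit the precision: there are 2 per group. Probe coordinates are those of the files, in rn4, and exon or UTR annotation was not used here. Alternatives were the scaling, the source of values, the background offset, the filter, the probes per gene, the block, the samples in the fit, masked areas and left-out samples or arrays. Replicate numbers did not pair the samples (correlations from -0.138 to 0.0411).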

Additional observations from a re-analysis of the deposited data

Results flagged for a closer look

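In 3 of 40 groups of 4 samples of the member probes, 1 sample lay far from the other 3, and chance alone gives about 1 group in 20. Control replicate 2 measured 9.02 for the Kcnc2 variant b probe A_64_P007447, below the others at 9.24 to 9.28. Replicate 3 given betamethasone with ketamine measured 7.57 for the Kcnc2 probe A_64_P092584, below the others at 7.82. Betamethasone replicate 3 measured 7.88 for the Kcnd3 probe A_64_P050540, above the others at 7.67.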

How the results depend on the processing

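Counts of called probes moved with the processing. Between betamethasone and control 46 probes were called, and the count was 0 with 75th percentile scaling, 0 with loess and equal array medians, 85 with processed signals, 8152 with the value table centred on column medians, 16 with it centred on common probes, 88 without the filter, 1033 without the array block, 3 with array means, 718 with the replicate block, 215 with only those groups and 71 with departing areas masked; it was 3 to 511 with a sample or array left out. Between betamethasone with ketamine and control 17 were called, and the counts in that order were 0, 0, 157, 6446, 7, 42, 862, 1, 496 and 2, and 25 under masking; left-out samples or arrays gave 3 to 3491. In the ketamine comparison, with 0 called, 680 at an unadjusted p under 0.05 and a smallest adjusted p of 0.217 in limma, the count was 4 with processed signals, 1 without the filter and 1 without the array block, and 0 to 2569 with samples or arrays left out. The replicate numbers share no pairing, and the replicate block changed no call of a member; Kcnip1 and Kcnv2 passed between betamethasone and control with it and without the array block, and Kcnip1 passed between betamethasone with ketamine and control without the array block. Member probes called were 0, except 7 in each comparison with control for the value table centred on column medians, 1 (Kcnd2 A_42_P539787, adjusted p = 0.0378 in limma) between betamethasone with ketamine and control without the array block, and 0 to 3 in the ketamine comparison, 0 to 1 between betamethasone with ketamine and control and 0 between betamethasone and control with samples or arrays left out. The median change over all probes was -0.22, 0.35 and 0.17 with 75th percentile scaling and -0.58, 0.08 and -0.51 with the value table centred on column medians, beside 0.03, 0.05 and 0.07. With masking, Kcna2 had too few values to be tested. The cause of these moves was not tested. With 75th percentile scaling, these log2 changes had the opposite sign: Kcnc2 A_64_P092584 -0.78, Kcnd2 A_64_P154548 0.0029, Kcnd3 A_64_P028396 -0.91, Kcnd3 A_64_P113414 -0.41, Kcnip2 -0.22 between betamethasone and control; Kcna2 0.33, Kcna4 0.19, Kcnc1 0.06, Kcnc2 A_64_P007447 0.0708, Kcnd3 A_64_P113414 0.68, Kcne4 0.86 between betamethasone with ketamine and betamethasone; Kcna1 -0.0029, Kcna2 0.0743, Kcnb2 0.0194, Kcnc1 0.0648, Kcnd3 A_64_P050540 0.19, Kcnd3 A_64_P113414 0.27, Dlg1 0.16 between betamethasone with ketamine and control. With loess and equal array medians, these log2 changes had the opposite sign: Kcna1 0.10, Kcna2 0.0115, Kcnc2 A_64_P092584 -0.51, Kcnd2 A_64_P154548 0.27, Kcnd3 A_64_P028396 -0.64, Kcnd3 A_64_P113414 -0.14, Kcnv1 0.0316, Kcng1 0.0861 between betamethasone and control; Kcna1 -0.26, Kcnb2 -0.0405, Kcnc2 A_64_P007444 -0.18, Kcnd2 A_64_P154548 -0.40, Kcnd3 A_64_P113414 0.26, Dpp10 -0.093, Kcne4 0.43, Lgi1 -0.20, Kcns3 -0.015 between betamethasone with ketamine and betamethasone; Kcna1 -0.15, Kcnd2 A_64_P154548 -0.13, Kcnd3 A_64_P050540 0.0386, Kcnd3 A_64_P113414 0.12, Dlg1 0.0135 between betamethasone with ketamine and control. With the processed signals, these log2 changes had the opposite sign: Kcnc2 A_64_P007444 0.0789, Lgi1 0.0288 between betamethasone and control; Kcnd2 A_42_P539787 0.0737, Kcnd3 A_64_P113414 0.13 between betamethasone with ketamine and betamethasone; Kcna1 -0.20, Kcnb2 0.0817, Kcnc2 A_64_P007444 0.21, Kcnd3 A_64_P113414 0.26, Kcnd1 0.12 between betamethasone with ketamine and control. With the value table centred on column medians, these log2 changes had the opposite sign: Kcnc1 -0.46, Kcnc2 A_64_P007447 -0.31, Kcnd3 A_64_P113414 -0.62, Kcnip1 -0.0818, Kcnip2 -0.0131, Kcna6 -0.0117 between betamethasone and control; Kcnd3 A_64_P113414 0.0319 between betamethasone with ketamine and betamethasone; Kcna1 -0.60, Kcnc2 A_64_P007447 -0.55, Kcnd2 A_64_P154548 -0.41, Kcnip1 -0.21, Kcnip3 -0.0357, Kcna6 -0.0965, Kcns1 -0.33 between betamethasone with ketamine and control. With the value table centred on common probes, a setting chosen after seeing the data, these log2 changes had the opposite sign: Kcnd3 A_64_P113414 -0.0283 between betamethasone and control; Kcna1 -0.0472, Kcnc2 A_64_P007447 -0.0039 between betamethasone with ketamine and control. With a normexp offset of 16, these log2 changes had the opposite sign: Kcna2 0.0024 between betamethasone and control. With 1 sample or 1 array left out, the changes that turned sign ranged as follows: Adam23 -2.29 to 0.0361, Cntn2 -0.74 to 0.0023, Kcna2 -0.10 to 0.10, Kcna5 -0.47 to 0.0091, Kcnc1 -0.0697 to 0.35, Kcnd2 A_64_P154548 -0.19 to 0.0501, Kcnd3 A_64_P028396 -0.0471 to 0.0637 between betamethasone and control; Kcna2 -1.10 to 0.14, Kcna4 -0.14 to 0.0467, Kcnd3 A_64_P028396 -0.0149 to 0.10, Kcnd3 A_64_P113414 -0.27 to 0.0542, Kcns3 -0.0402 to 0.38 between betamethasone with ketamine and betamethasone; Adam23 -2.28 to 0.0486, Dlg1 -0.50 to 0.0675, Dlg2 -0.0582 to 1.71, Kcna1 -0.14 to 0.14, Kcna2 -1.10 to 0.14, Kcnb2 -0.13 to 0.0971, Kcnc1 -0.31 to 0.11, Kcnd2 A_64_P154548 -0.0277 to 0.36, Kcnd3 A_64_P028396 -0.0066 to 0.11, Kcnd3 A_64_P050540 -0.12 to 0.0965, Kcnd3 A_64_P113414 -0.18 to 0.14 between betamethasone with ketamine and control.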
